A study of Homo sapiens with 9 samples.

Results

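Long intergenic non-coding RNAs are transcripts that lie between protein-coding genes and carry no long reading frame. Those without a name from a known function are given the symbol LINC and a number. The genes described here are the 169 symbols of that form, among 2235 in the table and 40332 gene symbols in all, that averaged at least 1 CPM (a gene's count over the library total, scaled to counts in 1e6) in at least 1 of 3 culture groups. Of the 2235 LINC symbols, 914 had a count in any library. The cells were wild-type H1, a line of human embryonic stem cells in wide use. In PXGL medium such cells keep a naive state, like that of the embryo before implantation, under the cytokine LIF and compounds that block MEK, protein kinase C and tankyrase, and N2B27 is its basal medium. RNA-seq covered 9 libraries, 3 in PXGL without EPZ-6438, 3 in N2B27 without EPZ-6438, and 3 in N2B27 with 5 µM EPZ-6438 for 3 days. The study's stated interest is the role of EZH2 in holding back primitive endoderm fate. The labels do not state a time in N2B27 for the cells without EPZ-6438, so time in N2B27 and the inhibitor cannot be told apart. All 3 groups come from 1 line, and sample names mark the N2B27 groups as derived from PXGL cultures.

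EZH2 is the enzyme of Polycomb repressive complex 2, which places the H3K27me3 mark on the promoters of silent developmental genes, and EPZ-6438 blocks its activity. Many long non-coding RNA genes lie beside developmental regulators and are marked by Polycomb together with them. Others start within endogenous retroviral sequence, and several of these are expressed in human pluripotent cells and lost as the cells differentiate. Most LINC genes have no established function, and their RNAs are typically less abundant and more cell-type restricted than messenger RNAs.

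Library totals ranged from 14482124 to 18358519 counts, and 3 counts equalled 0.163 to 0.207 CPM. PXGL replicate 1 stood apart. Its pairwise chi-square per degree of freedom against replicates 2 and 3 was 19.6 and 26.3, against 2.57 to 3.66 for the other pairs within a group, and its share of counts from ribosomal protein genes was 7.36%, where the other PXGL libraries had 6.05% and 5.63%. Marker lists of 8 cell states were summed in TMM-scaled CPM. For the 6 pluripotent markers the sums were 2968 to 3261 (PXGL), 4097 to 4150 (N2B27) and 3360 to 3417 (with EPZ-6438), and none had a mean below 0.2. From PXGL to N2B27, LIN28A rose 1.93-fold and SALL4 1.41-fold, SOX2 fell 1.14-fold, and POU5F1, NANOG and PRDM14 did not pass. The 8 naive markers summed to 2942 to 3449, 2332 to 2345 and 2524 to 2581 in PXGL, N2B27 and with EPZ-6438. The 8 primed markers summed to 57.5 to 60.9, 868 to 878 and 450 to 457. From PXGL to N2B27, DNMT3L, KLF4, DPPA5 and TFCP2L1 fell, and KLF17, SUSD2, DPPA3 and ARGFX did not pass. OTX2 fell 1.4-fold there and the other primed markers rose. With EPZ-6438 against N2B27, ARGFX, DNMT3L, KLF4, SUSD2 and KLF17 rose, DPPA5 and DPPA3 fell and TFCP2L1 did not pass. ZIC2 rose 2.34-fold and OTX2 1.48-fold there, DUSP6 did not pass, and SFRP2, PTPRZ1, FGF2, THY1 and CD24 fell. The 8 hypoblast markers summed to 191 to 243, 323 to 332 and 530 to 548, mostly from LAMB1 and COL4A1. Within that list HNF4A fell 3.53-fold from PXGL to N2B27. With EPZ-6438 against N2B27, GATA6 rose 10.8-fold, HNF4A 2.53-fold, LAMB1 1.67-fold, GATA4 1.62-fold and COL4A1 1.49-fold. PDGFRA passed in no comparison, SOX17 was too low to test and APOA1 had 0 counts. The 7 trophectoderm markers summed to 219 to 257, 935 to 942 and 1098 to 1140, mostly from KRT18. CDX2 and GATA3 fell from PXGL to N2B27 (10.1-fold and 1.60-fold), and VGLL1 had 0 counts. With EPZ-6438 against N2B27, CDX2 rose 45.6-fold, on 112 counts against 2. HAND1 rose 4.06-fold, GATA3 3.26-fold and KRT18 1.2-fold there, while KRT7 and TFAP2C did not pass. The 5 mesendoderm markers summed to 10.2 to 12.3, 23.0 to 27.3 and 152 to 163. The 7 fibroblast markers summed to 17.6 to 22.6, 54.9 to 56.8 and 48.5 to 54.2, mostly from COL1A1 and COL1A2, with DCN at 0 counts in both N2B27 groups. With EPZ-6438 against N2B27, COL1A1 fell 1.33-fold and COL1A2 1.22-fold, while TWIST1 rose 4.42-fold and PRRX1 10.2-fold. The 5 neural markers summed to 1.7 to 2.85, 1.62 to 2.02 and 7.18 to 8.47, mostly from ZIC1 (means of 1.95, 1.1 and 6.83 CPM). PAX6, SOX1, DLX5 and NEUROG2 were too low to test. The part of these differences in the results on LINC genes was not tested. In bulk RNA, fewer cells of a type and less RNA per cell cannot be told apart.

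The level rule used the group means, so the levels that chose the genes are descriptions. Where a gene met the rule only in the group in which it was higher, the direction follows from the rule, and its difference is given with no p. Of the 169 genes 112 met the rule in all 3 groups, 18 in PXGL alone, 9 with EPZ-6438 alone, 6 in N2B27 alone, 13 in both N2B27 groups, 9 in PXGL and with EPZ-6438, and 2 in PXGL and N2B27. Just inside the threshold were LINC00482, LINC00621 and LINC02714, with highest group means of 1.02, 1.02 and 1.03 CPM. Just outside were LINC02267, LINC01198 and LINC00678, at 0.994, 0.988 and 0.983 CPM. The rule admitted 14441 other genes, of which 632 were other long non-coding RNA genes. The 169 genes together took 0.0929% to 0.108% of the counts in a library. Their summed level was 929, 1003 and 1022 CPM in the PXGL libraries, 952, 985 and 969 CPM in N2B27 and 1055, 1077 and 1043 CPM with EPZ-6438. The 3 libraries with EPZ-6438 were the highest of the 9, and the PXGL and N2B27 libraries overlapped. LINC symbols with a count numbered 519 to 524 per library in PXGL, 442 to 466 in N2B27 and 503 to 516 with EPZ-6438, at totals that were highest in PXGL.

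Most of these RNAs were scarce. The median group mean was 2.4 CPM in PXGL, 2.23 CPM in N2B27 and 2.72 CPM with EPZ-6438, and 22, 22 and 25 genes reached 10 CPM. Per kilobase of merged exon length, which allows levels of different genes to be compared, LINC02582 was highest in every group at 42.7, 37.6 and 33.0 CPM per kilobase in PXGL, N2B27 and N2B27 with EPZ-6438. LINC00665 followed at 12.1, 17.0 and 17.8 CPM per kilobase. The deposited values were not whole in 9 of 9 libraries for LINC02582 and in 8 for LINC00665. That happens when reads are shared out between genes, so these levels depend on how the reads were divided. LINC01108 held 7.72, 12 and 11 and LINC02575 held 6.95, 8.49 and 13.5 CPM per kilobase. LINC01013 was among the 5 highest in N2B27 and with EPZ-6438, at 9.44 and 7.35 CPM per kilobase, and LINC01160 among the 5 highest in PXGL, at 7.45. The genes at the top were thus nearly the same in the 3 groups, while their order changed below LINC00665. The SD over the 3 libraries of a group was 21.0% of the mean for the median gene.

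GENCODE 29 placed all members but LINC03009 on hg38. It typed 131 as lincRNA, 17 as processed transcripts and 7 as antisense, and 6 as transcribed pseudogenes. It typed 3 as protein coding, among them LINC03040, listed there as C6orf223, and LINC02693, listed as C17orf51, so the symbol alone does not make every member non-coding in that annotation. Merged exons spanned 291 to 28876 bases, with a median of 3164. The median distance from a start site to the nearest protein-coding start was 68.1 kb. It was within 1 kb for 8 genes, 4 of them divergent, and over 500 kb for 15. The gene bodies of 16 overlapped a protein-coding gene and 12 of those shared exon sequence, and since counting by strand was not stated, their reads and those of the overlapping gene cannot be told apart. Chromosomes 1, 12 and 6 held the most members, with 21, 14 and 12.

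EPZ-6438 in N2B27 against N2B27 alone gave more rises than falls among these RNAs. Among the tested members 20 rose, 2 fell and 146 did not pass (edgeR quasi-likelihood test, adjusted p under 0.05). Over all 15179 genes tested, 14.2% rose and 10.6% fell. The members' shares were 11.9% and 1.19%, so the share that rose was near the background and the share that fell was below it. Among 628 other long non-coding RNA genes meeting the same level rule, 10.2% rose and 4.46% fell. The rule sets only a lowest level. No set compared here or below was matched to the members in level, and the part of level in the shares was not tested. The median log2 fold change was 0.13 over the members, 0.09 over the other long non-coding RNAs and 0.01 over all genes. Changes over 2-fold were called for 17 members, or 10.1%, against 6.44% of all genes. Ranges of the groups did not overlap for 29.2% of members and 46.4% of all genes. Among the called members, 5 of the 20 that rose met the level rule only with EPZ-6438 and 1 of the 2 that fell only in N2B27, so those directions follow from the rule. Among the 125 members at 1 CPM or more in both groups, 12 rose and 1 fell, against 13.8% and 11.5% of all genes at that level in both.

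**Figure D1:**
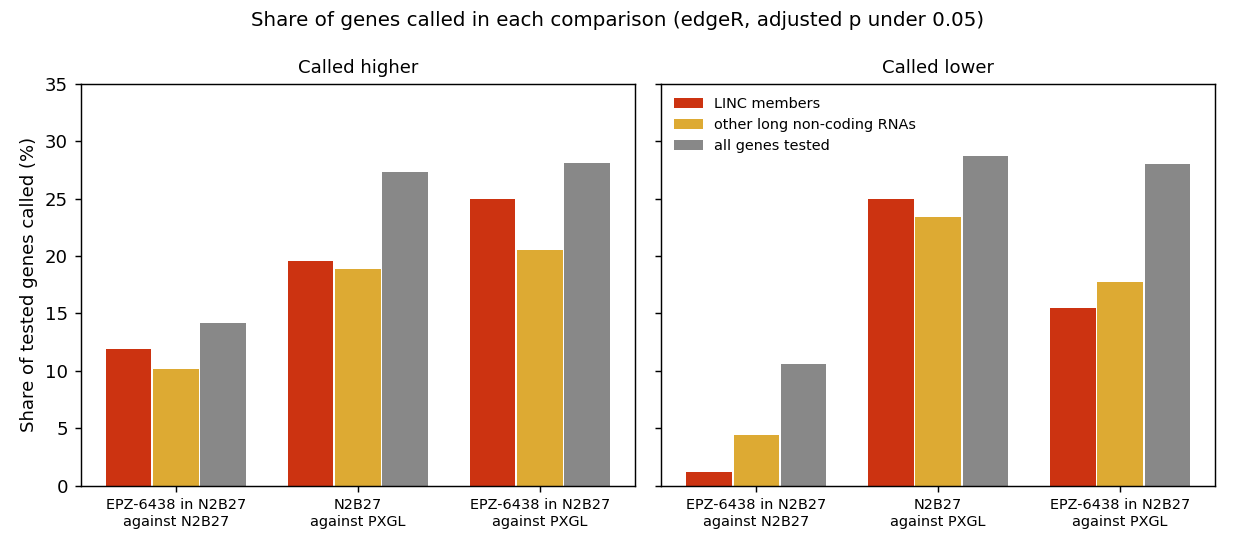
Share of tested genes called higher (left) and lower (right) in each of the 3 comparisons, in percent. Sets are the tested LINC members, 628 other long non-coding RNA genes meeting the same level rule and all 15179 genes. Members called lower with EPZ-6438 against N2B27 made up 1.19% against 10.6% of all genes.

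The rises differed in how firmly the libraries carried them. Of the 20 called rises, 11 kept the call in every alternative fit apart from the test against a 1.5-fold threshold, the fits without each library in turn among them. These 11 were LINC02086, LINC00461, LINC02204, LINC02709, LINC00511, LINC00839, LINC02523, LINC00540, LINC01234, LINC02575 and LINC00937. Of these, LINC02086, LINC02204 and LINC02709 met the level rule only with EPZ-6438. Their direction follows from the rule, and a kept call adds nothing to it. The other 9 lost it in at least 1 such fit. The count itself ranged from 13, without N2B27 replicate 1 or without EPZ-6438 replicate 2 or 3, to 29 without PXGL replicate 1. Leaving out that PXGL library also raised the calls over all genes from 3752 to 5770, although it belongs to neither group.

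**Figure D2:**
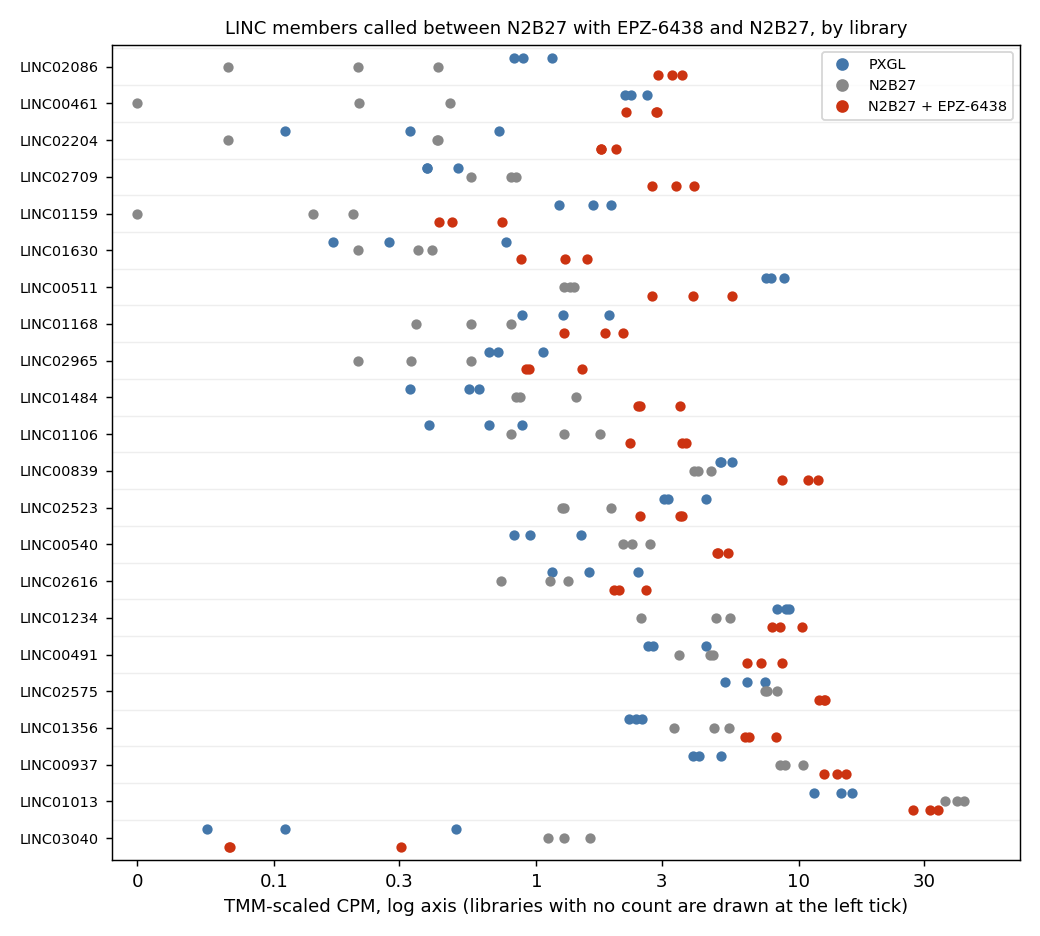
TMM-scaled CPM of the 22 members called between N2B27 with EPZ-6438 and N2B27, 1 point per library on a log axis (no count drawn at the left tick), coloured by group and ordered by log2 fold change. The EPZ-6438 points lie clear of the N2B27 points in each row, while the PXGL points lie near either group or beyond both.

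LINC02086 rose most. It lies at chr17:48646923-48707346 on the plus strand (hg38), at the end of the HOXB cluster, between HOXB9 and HOXB13. Its start is 13351 bases from the start site of HOXB7, from which it points away. HOXB7 has the nearest annotated start because its gene body, chr17:48607227-48633572 on the minus strand, spans those of HOXB8 and HOXB9. HOX genes give cells of the embryo their position from head to tail, and Polycomb silences them where they are not in use. The levels of LINC02086 were 1.15, 0.822 and 0.888 CPM in PXGL, 0.209, 0.422 and 0.0667 CPM in N2B27 and 3.29, 3.59 and 2.91 CPM with EPZ-6438. All 3 libraries with EPZ-6438 were above all PXGL libraries, and these were above all N2B27 libraries. The level with EPZ-6438 was 13.8 times that in N2B27 (log2 3.78, SE 0.46), on 151 counts against 10, and 3.4 times that in PXGL. LINC02086 met the level rule only through the EPZ-6438 group. Its fall from PXGL to N2B27, a contrast that did not admit it, was 4.04-fold (log2 -2.02, SE 0.52, adjusted p = 0.00321).

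The neighbouring HOXB genes were read beside it. HOXB7 was at 3.07, 1.97 and 2.67 CPM in PXGL, 0.209, 0.773 and 0.533 CPM in N2B27 and 4.83, 4.38 and 4.54 CPM with EPZ-6438. The order of the groups was the same as for LINC02086, without overlap, and HOXB7 rose 8.95-fold over N2B27 (log2 3.16, SE 0.35, adjusted p = 5.14e-06). HOXB9 had no count in the N2B27 libraries and averaged 0.971 ± 0.411 CPM in PXGL and 1.44 ± 0.249 CPM with EPZ-6438 (SD, n = 3). HOXB13, on the far side of LINC02086, was at 8.53 ± 0.435, 4.66 ± 1.36 and 6.05 ± 0.457 CPM in PXGL, N2B27 and with EPZ-6438, and its difference between the N2B27 groups did not pass (log2 0.38, adjusted p = 0.188). RefSeq (GRCh38.p14) gives LINC02086 more than 1 start. The promoter windows of 250 bases before to 50 after the start, at chr17:48642377-48642676 and chr17:48646509-48646808 on the plus strand, hold 21 and 31 CG dinucleotides. They are shown with CG in capitals because CG-rich promoters are the typical site of Polycomb marking.
LINC02086 first start: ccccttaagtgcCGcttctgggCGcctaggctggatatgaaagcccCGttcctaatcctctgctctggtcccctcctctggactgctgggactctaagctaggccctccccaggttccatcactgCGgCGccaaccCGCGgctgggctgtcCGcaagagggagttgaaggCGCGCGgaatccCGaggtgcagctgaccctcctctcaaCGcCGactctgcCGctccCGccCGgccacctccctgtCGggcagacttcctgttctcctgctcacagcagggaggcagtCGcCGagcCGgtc
LINC02086 second start: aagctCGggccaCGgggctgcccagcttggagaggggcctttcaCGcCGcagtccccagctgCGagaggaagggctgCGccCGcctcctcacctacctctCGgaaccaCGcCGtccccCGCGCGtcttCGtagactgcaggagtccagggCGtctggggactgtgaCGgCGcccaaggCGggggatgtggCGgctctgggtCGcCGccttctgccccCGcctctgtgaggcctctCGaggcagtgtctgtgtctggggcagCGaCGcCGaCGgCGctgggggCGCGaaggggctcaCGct

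A set of called members was low in N2B27 and higher in both PXGL and N2B27 with EPZ-6438. LINC00461, the host gene of the neuronal microRNA gene MIR9-2 on chromosome 5, was at 2.63, 2.30 and 2.17 CPM in PXGL, 0, 0.211 and 0.467 CPM in N2B27 and 2.88, 2.19 and 2.85 CPM with EPZ-6438. The N2B27 libraries lay below all others, and the PXGL and EPZ-6438 libraries overlapped. The rise with EPZ-6438 was 11.2-fold (log2 3.48, SE 0.51, adjusted p = 8.91e-05), on 121 counts against 10. The fall from PXGL to N2B27 had a log2 fold change of -3.33 (SE 0.51, adjusted p = 3.67e-05), and EPZ-6438 against PXGL did not pass (log2 0.15, SE 0.36, adjusted p = 0.737).

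LINC00511, a long non-coding RNA on chromosome 17 studied mainly in tumours and reported there to bind EZH2, stood at 7.84, 7.51 and 8.77 CPM in PXGL, 1.39, 1.34 and 1.27 CPM in N2B27 and 2.75, 3.95 and 5.56 CPM with EPZ-6438. No groups overlapped, and the level with EPZ-6438 lay between the other two. It rose 3.06-fold with EPZ-6438 (log2 1.61, SE 0.27, adjusted p = 0.000321) and stayed 1.97-fold lower than in PXGL (adjusted p = 0.00114). LINC01234 on chromosome 12 was at 8.94, 9.20 and 8.27 CPM in PXGL, 2.51, 4.85 and 5.47 CPM in N2B27 and 10.3, 7.91 and 8.47 CPM with EPZ-6438. Its N2B27 libraries were the lowest and the other groups overlapped, with a 2.07-fold rise (log2 1.05, SE 0.22, adjusted p = 0.00202).

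LINC02523 lies on chromosome 6 on the same strand as HEY2, a Notch-responsive transcription factor whose start is 73311 bases away. It was at 3.07, 4.44 and 3.17 CPM in PXGL, 1.25, 1.27 and 1.93 CPM in N2B27 and 2.48, 3.59 and 3.53 CPM with EPZ-6438, a 2.15-fold rise over N2B27 (log2 1.10, SE 0.29, adjusted p = 0.0105). HEY2 fell from 41.2 ± 3.71 CPM in PXGL to 15.8 ± 1.30 in N2B27 and was at 25.6 ± 2.09 CPM with EPZ-6438, 1.62-fold above N2B27 (adjusted p = 0.000145). The deposited values of LINC02523 were not whole in 5 of 9 libraries, as happens when reads are shared out between genes.

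LINC01159 starts 17084 bases from POU3F3, a neural transcription factor on chromosome 2. It was at 1.92, 1.64 and 1.22 CPM in PXGL, 0, 0.141 and 0.2 CPM in N2B27 and 0.738, 0.426 and 0.475 CPM with EPZ-6438. The 3 groups did not overlap, on 87, 5 and 25 counts. The rise with EPZ-6438 (log2 2.17, SE 0.72, adjusted p = 0.0366) lost its call without PXGL replicate 2, N2B27 replicate 1 or 2, or any 1 EPZ-6438 library, with adjusted p from 0.0531 to 0.127. LINC01159 met the level rule in PXGL alone, where it was 13.1 times its N2B27 level. POU3F3 was at 4.2 ± 0.284, 0.364 ± 0.202 and 1.19 ± 0.396 CPM in the same order, with a 3.17-fold rise with EPZ-6438 (adjusted p = 0.0128) that did not pass without N2B27 replicate 2, EPZ-6438 replicate 1 or EPZ-6438 replicate 3 (adjusted p = 0.0602, 0.0514 and 0.0521).

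**Figure D3:**
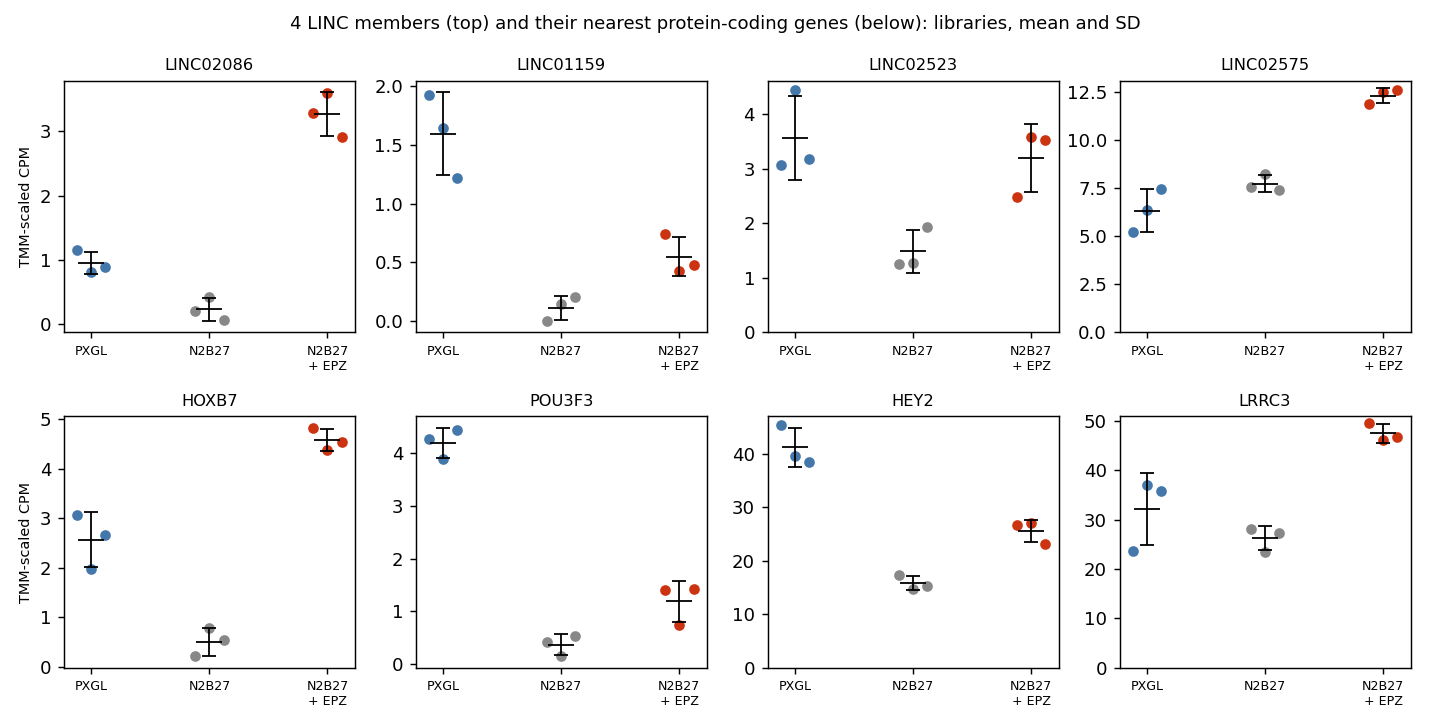
TMM-scaled CPM of 4 members (top row) and their nearest protein-coding genes (bottom row) in the 3 libraries of each group, with the mean and SD as black marks. N2B27 is the lowest group for LINC02086, LINC01159 and LINC02523 and their neighbours HOXB7, POU3F3 and HEY2, and EPZ-6438 is the highest for LINC02575 and LRRC3.

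Other members were higher with EPZ-6438 than in either other group. LINC02709 on chromosome 11 was at 0.384, 0.383 and 0.5 CPM in PXGL, 0.836, 0.563 and 0.800 CPM in N2B27 and 2.75, 3.41 and 4 CPM with EPZ-6438, and met the level rule in that group alone. The lowest EPZ-6438 library was above every other library (4.58-fold over N2B27, log2 2.19, SE 0.35). LINC02204 on chromosome 15 was at 0.110, 0.329 and 0.722 CPM in PXGL, 0.418, 0.422 and 0.0667 CPM in N2B27 and 2.01, 1.76 and 1.76 CPM with EPZ-6438 (6.03-fold over N2B27, log2 2.59, SE 0.59), and it too met the rule with EPZ-6438 alone. The PXGL and N2B27 libraries overlapped, and those with EPZ-6438 stood above both.

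LINC00839 on chromosome 10 met the rule in all 3 groups, so its rise does not follow from the rule. It was at 5.54, 5.04 and 5.00 CPM in PXGL, 3.97, 4.64 and 4.13 CPM in N2B27 and 10.8, 11.8 and 8.61 CPM with EPZ-6438. This 2.45-fold rise (log2 1.29, SE 0.17, adjusted p = 3.27e-05) kept its call in every fit, that against 1.5-fold included. LINC00540 on chromosome 13 increased at each step, from 0.823, 1.48 and 0.944 CPM in PXGL to 2.72, 2.32 and 2.13 CPM in N2B27 and 4.90, 5.35 and 4.88 CPM with EPZ-6438. No groups overlapped, and it rose 2.11-fold over N2B27 (adjusted p = 0.00432) and 4.64-fold over PXGL (adjusted p = 2.81e-06).

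LINC02575 on chromosome 21, one of the 5 most abundant members per kilobase, was at 5.21, 6.35 and 7.44 CPM in PXGL, 7.59, 8.23 and 7.40 CPM in N2B27 and 11.9, 12.5 and 12.6 CPM with EPZ-6438 (1.59-fold over N2B27, log2 0.67, SE 0.15, adjusted p = 0.00326). LRRC3, a leucine-rich repeat protein gene on the same strand 30091 bases away, was at 32.1 ± 7.34, 26.3 ± 2.43 and 47.5 ± 1.86 CPM in the same order and rose 1.81-fold over N2B27 (adjusted p = 0.000176). LINC00937 on chromosome 12 rose 1.49-fold, from 9.25 ± 1.01 to 13.8 ± 1.33 CPM (adjusted p = 0.00809), but 5 other genes carry transcript sequence alike to it and 8 of 9 libraries gave it values that are not whole.

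The remaining 8 called rises rested on fewer counts or smaller differences, and each lost its call without at least 1 library. LINC01168 went from 0.570 ± 0.226 to 1.74 ± 0.433 CPM (3.03-fold, adjusted p = 0.0155) and did not pass without N2B27 replicate 1 (adjusted p = 0.0727) or EPZ-6438 replicate 2 (adjusted p = 0.0708). LINC01484 went from 1.04 ± 0.321 to 2.82 ± 0.616 CPM (2.72-fold, adjusted p = 0.00814) and missed the threshold without EPZ-6438 replicate 2 (adjusted p = 0.0567). LINC01630 went from 0.320 ± 0.0994 to 1.24 ± 0.345 CPM (3.78-fold) and LINC02965 from 0.368 ± 0.179 to 1.11 ± 0.327 CPM (2.98-fold), and both met the level rule with EPZ-6438 alone. They rested on 57 and 51 counts with EPZ-6438, and each lost its call without any of 5 libraries. LINC01106 went from 1.27 ± 0.470 to 3.20 ± 0.798 CPM (2.52-fold, adjusted p = 0.0136) and did not pass without N2B27 replicate 3 or EPZ-6438 replicate 2 or 3 (adjusted p = 0.0688, 0.0610 and 0.0642). LINC00491 went from 4.26 ± 0.680 to 7.39 ± 1.13 CPM (adjusted p = 0.0155), LINC01356 from 4.49 ± 1.06 to 6.96 ± 1.07 CPM (adjusted p = 0.0359) and LINC02616 from 1.06 ± 0.3 to 2.22 ± 0.350 CPM (adjusted p = 0.0461). LINC00491 lost its call without N2B27 replicate 1 or EPZ-6438 replicate 3 (adjusted p = 0.0799 and 0.0820). LINC01356 lost it without N2B27 replicate 1 or 3 or any EPZ-6438 library (adjusted p from 0.0521 to 0.162), and LINC02616 without any 1 library other than PXGL replicates 1 and 3 (adjusted p from 0.0573 to 0.162).

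The 2 falls were unlike each other. LINC03040 on chromosome 6 was at 0.110, 0.493 and 0.0555 CPM in PXGL, 1.11, 1.27 and 1.60 CPM in N2B27 and 0.0671, 0.304 and 0.0678 CPM with EPZ-6438. It met the rule in N2B27 alone, where all 3 libraries stood above the other 6, and its mean there was 8.42-fold above its level with EPZ-6438 (log2 -3.07, SE 0.70), on 58 counts against 7. LINC01013, also on chromosome 6, was at 14.5, 11.4 and 15.9 CPM in PXGL, 40.1, 42.8 and 36.1 CPM in N2B27 and 27.3, 33.8 and 31.6 CPM with EPZ-6438. Its fall was 1.28-fold (log2 -0.36, SE 0.12, adjusted p = 0.0331) and did not pass without N2B27 replicate 1 or 2 or EPZ-6438 replicate 1 or 3 (adjusted p from 0.0762 to 0.154).

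The most abundant members that did not pass between the N2B27 groups were LINC00665, LINC02582 and LINC01108. LINC00665 was at 122 ± 2.63 CPM in N2B27 and 128 ± 5.66 CPM with EPZ-6438 (log2 0.07, SE 0.06, adjusted p = 0.488). LINC01108 was at 44.4 ± 1.83 and 40.6 ± 1.68 CPM (log2 -0.13, SE 0.09, adjusted p = 0.361). LINC02582 was at 83.8, 81.2 and 91.6 CPM in N2B27 and 71.9, 79.8 and 73.6 CPM with EPZ-6438, ranges that did not overlap (log2 -0.19, SE 0.07, adjusted p = 0.0621). The call for LINC02582 turned on the fit: it was lower with DESeq2's Wald test (adjusted p = 0.0462), with the 2 groups fitted alone (adjusted p = 0.00828) and without PXGL replicate 1 (adjusted p = 0.00671).

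N2B27 against PXGL asks what changed when the additions that hold the naive state were absent. Among the members 33 rose, or 19.6%, and 42 fell, or 25%. Over all genes 27.3% rose and 28.7% fell, so both shares of the members lay below the background. Over 2-fold changes were called for 25.6% of members and 18.3% of all genes, and group ranges did not overlap for 52.4% and 60.8%. The median log2 fold change was -0.05 over members and -0.03 over all genes. At 1 CPM or more in both groups, 24 of 114 members rose and 23 fell (21.1% and 20.2%), against 27.6% and 29.5% of all genes at that level. Of the calls, 9 falls were in members that met the rule in PXGL alone and 1 rise in a member that met it in N2B27 alone. Without PXGL replicate 1 the counts were 33 higher and 47 lower.

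**Figure D4:**
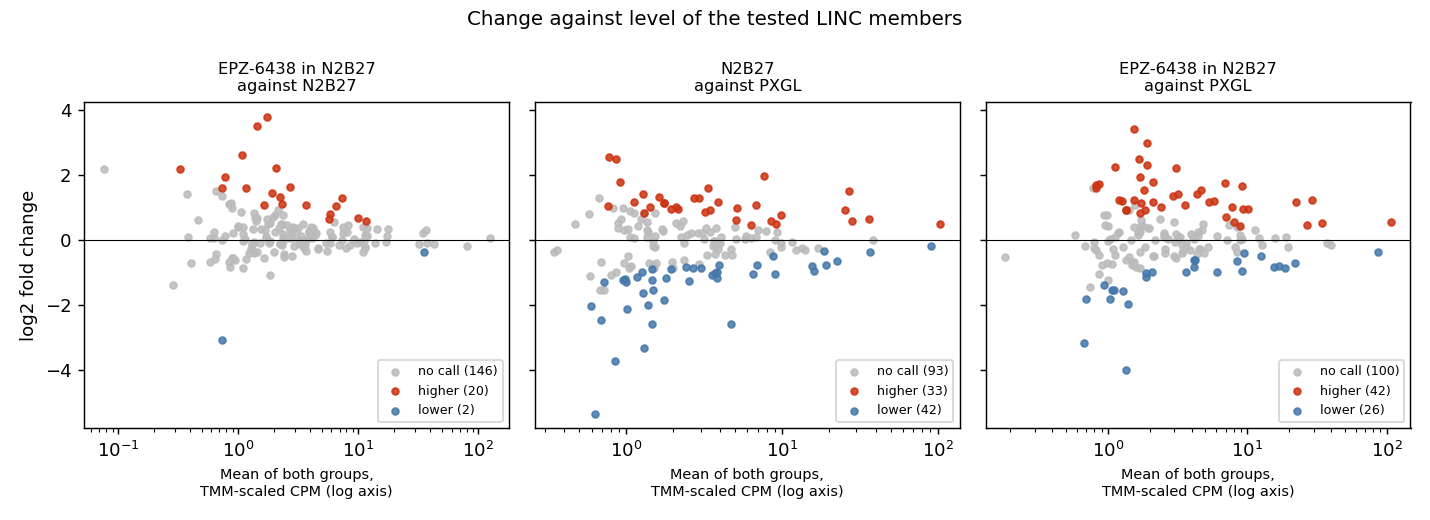
log2 fold change (y axis) against the mean TMM-scaled CPM of both groups (x axis, log) for the tested members in the 3 comparisons, coloured by call. Large changes sit at low levels, and LINC00665 and LINC02582, the 2 most abundant members, changed by at most 0.56 on the log2 scale in either direction.

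The largest falls on leaving PXGL were at low levels, and several were in members that met the level rule in PXGL alone: LINC00330, LINC02473, LINC01569, LINC01772, LINC02609 and LINC01159. LINC00330 on chromosome 13 was at 0.987, 1.26 and 1.44 CPM in PXGL and at 0, 0.0703 and 0 CPM in N2B27, or 67 counts against 1. That is 55.5 times as many per library total (95% interval from counting error alone, 9.63 to 2225). The interval pools the libraries of a group and leaves out the spread between them. The direction follows from the level rule, so the interval is no test of it. LINC00330 was at 0.134, 0.182 and 0.0678 CPM with EPZ-6438, on 6 counts. LINC02473 on chromosome 4 was at 2.58, 2.68 and 2.33 CPM in PXGL, 0.139, 0.773 and 0.333 CPM in N2B27 and 0, 0.122 and 0.339 CPM with EPZ-6438. It was 6.02-fold lower in N2B27 and 15.9-fold lower with EPZ-6438, and the N2B27 groups overlapped each other. LINC02152 fell 3.60-fold (adjusted p = 0.00107) and LINC02367 3.96-fold (adjusted p = 0.00154). LINC01569, LINC01772 and LINC02609 were 3.08-fold, 5.55-fold and 4.38-fold lower. These 5 had PXGL means of 1.18 to 2.75 CPM, and their PXGL and N2B27 ranges did not overlap. The falls of LINC01159, LINC00461 and LINC00511 are given above.

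Falls were also seen at higher levels, in genes picked from the called list after their values were seen. LINC00641 on chromosome 14 was at 20.2, 19.7 and 24.4 CPM in PXGL, 10.2, 10.8 and 11.8 CPM in N2B27 and 11.8, 12.7 and 12.1 CPM with EPZ-6438. It fell 1.96-fold in N2B27 (log2 -0.97, SE 0.12, adjusted p = 4.01e-06) without overlap. LINC00632, the X-linked locus from which the circular RNA CDR1as arises, went from 27.4 ± 6.33 to 17.7 ± 1.83 CPM (1.55-fold, adjusted p = 0.00162) and LINC00342 from 12.2 ± 3.03 to 5.86 ± 0.831 CPM (2.08-fold, adjusted p = 0.000212). The gene body of LINC00632 overlaps CDR1 in the annotation, and its linear and circular RNA were not separated. The transcript of LINC00342 is 96.7% alike those of APPAT and AC159540.2 over 2185 of its 2351 bases. Its values were not whole in 3 libraries, so its level depends on how reads were divided.

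Among the rises, LINC01013 had the smallest adjusted p and was 2.84-fold higher in N2B27 than in PXGL (log2 1.51, SE 0.12, adjusted p = 2.61e-08). LINC00472, studied as a tumour suppressor RNA of breast cancer, was at 0.110, 0.603 and 0.0555 CPM in PXGL, 1.67, 1.48 and 1.27 CPM in N2B27 and 4.03, 2.49 and 1.90 CPM with EPZ-6438. It rose 5.59-fold in N2B27 (log2 2.48, SE 0.59, adjusted p = 0.00180) and was the member with the largest rise with EPZ-6438 against PXGL (10.6-fold, adjusted p = 6.24e-05). The difference between the N2B27 groups did not pass (log2 0.93, SE 0.45, adjusted p = 0.148). LINC03040, which met the rule in N2B27 alone, was 5.87-fold higher there. LINC01415 rose 3.44-fold (adjusted p = 0.00617), LINC01503 2.68-fold (adjusted p = 0.00499), LINC02328 2.52-fold (adjusted p = 0.00353) and LINC03015 2.41-fold (adjusted p = 0.00109). The N2B27 means of these 5 were 1.33 to 4.15 CPM.

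LINC02864, LINC00624 and LINC02600 were the most abundant members with no call between N2B27 and PXGL. LINC02864 was at 38.4 ± 1.74 CPM in PXGL, 38.6 ± 0.767 CPM in N2B27 and 35.9 ± 1.94 CPM with EPZ-6438 (log2 0.01, SE 0.08, adjusted p = 0.937 for N2B27 against PXGL). It starts 60461 bases from LINC02582 on chromosome 18, which did fall from 97.3 ± 1.36 to 85.5 ± 5.38 CPM (log2 -0.18, SE 0.07, adjusted p = 0.0315). That call was lost with DESeq2 size factors (adjusted p = 0.0501), with the Wald test (adjusted p = 0.0526), in the fit of 2 groups (adjusted p = 0.0659), with no filter on low counts (adjusted p = 0.0733) and without PXGL replicate 2 or N2B27 replicate 1 or 2 (adjusted p = 0.0849, 0.101 and 0.141). LINC00624 was at 18.5 ± 1.56 and 15.6 ± 0.658 CPM (adjusted p = 0.0836). LINC02600 was at 15.5 ± 0.155 and 12.6 ± 0.638 CPM, ranges that did not overlap (log2 -0.30, SE 0.13, adjusted p = 0.0682), and passed without EPZ-6438 replicate 1 (adjusted p = 0.0375).

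N2B27 with EPZ-6438 against PXGL shares its libraries with both other comparisons, so the values are given side by side and not as a further finding. Here 42 members rose, or 25%, and 26 fell, or 15.5%, against 28.1% and 28.0% of all genes. Changes over 2-fold were called for 42 members, or 25%, and 17.9% of all genes, and ranges did not overlap for 46.4% and 60.7%. The median log2 fold change was 0.04 over members and -0.00 over all genes. At 1 CPM or more in both groups, 26 of 121 members rose (21.5%) and 17 fell (14%), against 27.1% and 29.6% of all genes at that level. Of the calls, 6 rises were in members that met the rule with EPZ-6438 alone and 9 falls in members that met it in PXGL alone. Without PXGL replicate 1 the counts were 43 and 30.

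By size, the rises against PXGL were LINC00472, LINC02709 (7.89-fold), LINC01484 (5.62-fold), LINC01106 (4.94-fold), LINC02204 (4.71-fold), LINC00540 (4.64-fold), LINC01503 (3.79-fold), LINC02086 (3.40-fold), LINC00623 (3.39-fold) and LINC01415 (3.25-fold). Against N2B27, LINC01503, LINC00623 and LINC01415 did not pass (log2 0.50, -0.21 and -0.08, adjusted p = 0.311, 0.431 and 0.919). The falls against PXGL were led by LINC02473 and LINC00330 and went on with LINC02930 (3.91-fold), LINC02975 (3.56-fold), LINC02043 (3.49-fold), LINC01569 (2.94-fold), LINC01159 (2.91-fold), LINC00910 (2.60-fold), LINC02055 (2.20-fold) and LINC00173 (2.02-fold). LINC02473, LINC00330, LINC02930, LINC02975, LINC02043, LINC01569, LINC01159 and LINC00910 met the level rule in PXGL alone, as LINC02709, LINC02204 and LINC02086 did with EPZ-6438 alone. The calls of LINC02043, LINC00910, LINC02055 and LINC00173 were each lost without any 1 of 3 libraries, and that of LINC01159 without EPZ-6438 replicate 2. For LINC02055 these were PXGL replicate 3 and EPZ-6438 replicates 1 and 3 (adjusted p = 0.0956, 0.0576 and 0.0953), and for LINC00173 PXGL replicate 2 and EPZ-6438 replicates 1 and 2 (adjusted p = 0.144, 0.0692 and 0.0774). For LINC02043 they were PXGL replicate 3 and EPZ-6438 replicates 2 and 3, and for LINC00910 PXGL replicate 2 and EPZ-6438 replicates 1 and 3. The members with no call and the highest levels were LINC02693 at 41.6 ± 2.36 in PXGL and 37.6 ± 3.28 CPM with EPZ-6438, LINC02864, and LINC01224 at 20.9 ± 2.39 and 18.1 ± 1.68 CPM (adjusted p = 0.174, 0.329 and 0.124). LINC02975, which fell, and LINC01503, which rose, start 49842 bases apart on chromosome 9.

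Members with a described role were looked up wherever they stood. LINC00458 and LINC01108, both known as RNAs of human embryonic stem cells, were higher in N2B27 than in PXGL. LINC00458 was at 4.39, 9.53 and 8.05 CPM in PXGL, 12.1, 12.2 and 13.2 CPM in N2B27 and 7.38, 11.6 and 9.76 CPM with EPZ-6438 (1.71-fold for N2B27 against PXGL, adjusted p = 0.00726). LINC01108 rose 1.55-fold from 28.5 ± 3.77 to 44.4 ± 1.83 CPM (adjusted p = 2.80e-05). LINC00678, looked up too and just outside the level rule, passed in no comparison. Its means were 0.972, 0.986 and 0.927 CPM in PXGL, N2B27 and with EPZ-6438. PXGL replicate 1 was the lowest of all libraries for LINC00458 and the highest of the PXGL libraries for LINC01108. LINC00665, studied mainly in tumours, rose 1.41-fold from 86.9 ± 4.54 CPM in PXGL to N2B27 (adjusted p = 6.84e-06), and LINC00667 rose 1.41-fold (adjusted p = 0.0152; 0.0922 without N2B27 replicate 2).

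LINC00467, a MYCN-repressed RNA of neuroblastoma, was at 6.84 ± 2.29, 10.3 ± 1.27 and 13.2 ± 0.883 CPM in PXGL, N2B27 and with EPZ-6438. Its rise against PXGL passed in N2B27 (adjusted p = 0.0155) and with EPZ-6438 (adjusted p = 0.000416), the former not without PXGL replicate 2, PXGL replicate 3 or N2B27 replicate 3 (adjusted p = 0.0653, 0.0724 and 0.0713). LINC00662 held 11.9 ± 0.241, 11.2 ± 0.307 and 12.3 ± 1.49 CPM, LINC00857 held 3.93 ± 0.388, 4.15 ± 0.681 and 3.27 ± 1.24 CPM, and LINC01405, an RNA of muscle, held 1.49 ± 0.518, 1.88 ± 0.541 and 1.77 ± 0.29 CPM. None of these 3 passed in any comparison. LINC00261, an endoderm RNA beside FOXA2, did not meet the level rule: it had 0, 1 and 4 counts over the groups. LINC01116, with 10, 6 and 11 counts, and LINC00543 and LINC00520, with no count, were looked up and did not meet it either. LINC01021, LINC00473 and LINC00673 were not among the deposited symbols. In all, 72 tested members passed in no comparison and 96 in at least 1, or 57.1%, against 70.4% of all genes tested.

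Long non-coding RNAs with names of their own gave a wider frame. Of 36 listed 35 were in the table and 26 were tested. With EPZ-6438 against N2B27, 7 rose and 2 fell (median log2 fold change 0.06), beside 14.2% and 10.6% of all genes. In N2B27 against PXGL 16 rose and 8 fell (median 0.77), beside 27.3% and 28.7%. With EPZ-6438 against PXGL 17 rose and 3 fell (median 0.73), beside 28.1% and 28.0%. The list was picked by hand from RNAs known in such cells, so its counts are a description. The 7 that rose with EPZ-6438 against N2B27 were HOTAIR, HOTAIRM1, NEAT1 (1.85-fold, adjusted p = 1.2e-06), GAS5 (1.25-fold), MALAT1 (1.21-fold), SNHG16 (1.18-fold) and SNHG1 (1.14-fold). HOTAIR and HOTAIRM1, which lie in the HOXC and HOXA clusters, had group means in the order seen for LINC02086. The means of NEAT1, MALAT1 and SNHG16 stood in that order too, while those of GAS5 and SNHG1 were highest in PXGL. HOTAIRM1 was at 1.89 ± 0.621, 0.181 ± 0.169 and 4.03 ± 0.317 CPM in PXGL, N2B27 and with EPZ-6438 (log2 4.40, SE 0.50, adjusted p = 5.48e-06 for EPZ-6438 against N2B27). HOTAIR was at 0.991 ± 0.0559, 0.0701 ± 0.0703 and 1.39 ± 0.534 CPM, on 3 counts in N2B27 (adjusted p = 0.000241), and its PXGL and EPZ-6438 libraries overlapped. The other listed RNAs of HOX clusters were too low to test. HOXA-AS2 (0.386, 0 and 0.728 CPM) and HOXA-AS3 (0.165, 0 and 0.299 CPM) had their highest means with EPZ-6438. HOXC-AS3 (0.681, 0.0457 and 0.238 CPM) and HOXD-AS2 (0.733, 0.0699 and 0.535 CPM) had theirs in PXGL. PXGL and EPZ-6438 libraries overlapped for HOXA-AS2, HOXA-AS3 and HOXD-AS2, on 21 against 33, 9 against 14 and 40 against 24 counts. HOTTIP was at most 0.0916 CPM and HOXB-AS3 had no count. The embryonic stem cell RNA ESRG was at 373 ± 63.0, 641 ± 27.3 and 469 ± 14.4 CPM and fell with EPZ-6438 (adjusted p = 0.00184), as did LNCPRESS1, at 12 ± 1.64, 49.5 ± 3.42 and 32.4 ± 2.29 CPM (adjusted p = 0.000276).

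The nearest protein-coding gene was tested for 15 of the 20 members that rose with EPZ-6438. It rose with 6 of them (40.0%), fell with 1 and did not pass for 8. Of protein-coding genes that rose, 21.7% had a nearest protein-coding neighbour that rose. Within 100 kb the neighbour rose with 5 of 8 members (62.5%) against 22.3%. The 6 pairs were LINC02086 and HOXB7, LINC01159 and POU3F3, LINC02523 and HEY2, LINC02575 and LRRC3, LINC00491 and PAM, and LINC00511 and SLC39A11, the last 452240 bases apart. The counts are small, and this difference was not tested. In N2B27 against PXGL, the neighbour moved the same way for 10 of 23 members that rose (43.5%, against 36.8% for protein-coding genes) and for 14 of 25 that fell (56.0% against 40.5%). With EPZ-6438 against PXGL the values were 18 of 30 (against 38.8%) and 5 of 16 (31.2% against 42.9%).

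RefSeq (GRCh38.p14) held a promoter window for 109 of the 169 members. The median number of CG dinucleotides in these 300 bases was 11, against 13 over all 27305 promoters. It was 26 over 10880 protein-coding genes and 23 over 470 other long non-coding RNA genes that met the level rule. At least 15 CG were present in 44.0% of members, 48.7% of all promoters, 81.8% of the protein-coding and 71.1% of the other long non-coding set, and fewer than 5 CG in 32.1%, 30.5%, 5.37% and 11.5%. These shares were not tested, and 60 members without a window are not in them. Of the members that rose with EPZ-6438, 13 had a window, with a median of 6 CG and 5 (38.5%) with at least 15.

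**Figure D5:**
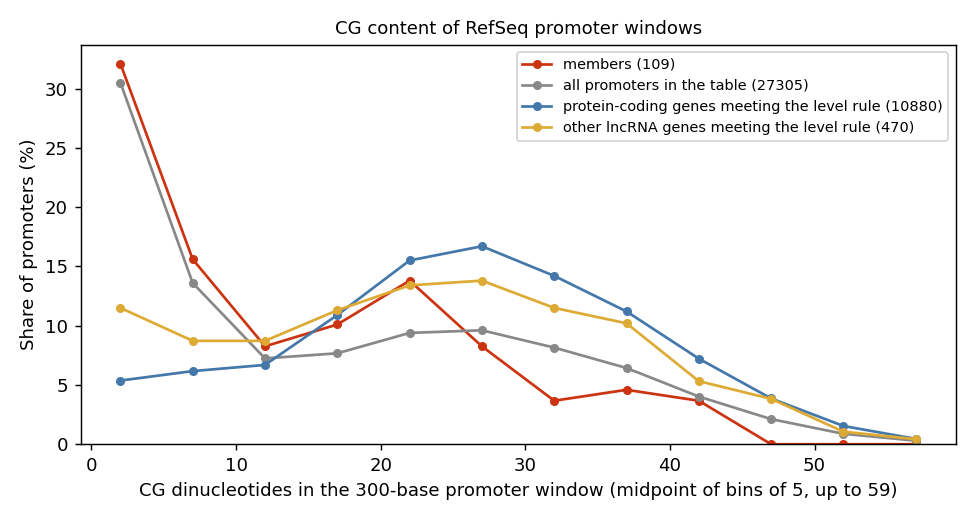
Share of promoter windows in percent (y axis) by number of CG dinucleotides (x axis, bins of 5). Sets are 109 members, all 27305 promoters, and 10880 protein-coding and 470 other long non-coding RNA genes meeting the same level rule. Members peak below 5 CG, where 32.1% of them lie, and protein-coding genes in the bin from 25 to 29.

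Windows of 4 members that rose with EPZ-6438 are shown because they span this range, with CG in capitals. They are LINC00511 at chr17:72640423-72640722 on the minus strand with 35 CG, LINC01159 at chr2:104872546-104872845 on the minus strand with 29, LINC00839 at chr10:42475241-42475540 on the plus strand with 9, and LINC02709 at chr11:9759484-9759783 on the minus strand with 6. They were chosen after their values were seen. Few and many CG occurred with either pattern across the groups: among members lower in N2B27 than in PXGL, LINC02523 had 2 CG and LINC01234 had 4, and among members highest with EPZ-6438, LINC01106 had 24.
LINC00511: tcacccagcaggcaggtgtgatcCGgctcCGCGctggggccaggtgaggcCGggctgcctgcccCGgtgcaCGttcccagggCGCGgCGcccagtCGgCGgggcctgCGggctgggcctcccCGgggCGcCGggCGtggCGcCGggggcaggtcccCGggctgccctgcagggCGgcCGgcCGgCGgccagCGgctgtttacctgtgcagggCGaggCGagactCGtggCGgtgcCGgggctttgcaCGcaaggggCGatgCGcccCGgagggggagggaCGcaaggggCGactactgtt
LINC01159: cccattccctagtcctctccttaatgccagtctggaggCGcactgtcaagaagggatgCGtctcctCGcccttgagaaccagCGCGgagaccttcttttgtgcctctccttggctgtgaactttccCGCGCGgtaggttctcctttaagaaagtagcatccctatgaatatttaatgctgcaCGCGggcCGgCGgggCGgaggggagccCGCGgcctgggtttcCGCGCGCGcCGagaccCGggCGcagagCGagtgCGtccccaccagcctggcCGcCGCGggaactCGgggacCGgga
LINC00839: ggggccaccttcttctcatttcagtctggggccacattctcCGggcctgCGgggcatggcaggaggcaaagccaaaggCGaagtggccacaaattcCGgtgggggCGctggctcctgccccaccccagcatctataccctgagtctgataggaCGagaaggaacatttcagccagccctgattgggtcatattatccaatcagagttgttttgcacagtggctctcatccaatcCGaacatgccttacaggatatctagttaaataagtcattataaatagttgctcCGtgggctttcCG
LINC02709: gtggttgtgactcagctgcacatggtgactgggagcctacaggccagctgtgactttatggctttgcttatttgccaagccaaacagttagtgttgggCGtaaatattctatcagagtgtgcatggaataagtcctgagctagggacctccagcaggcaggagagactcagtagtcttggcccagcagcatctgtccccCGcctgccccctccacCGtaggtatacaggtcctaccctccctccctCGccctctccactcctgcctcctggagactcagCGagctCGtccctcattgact

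Motif matches were counted on both strands. The TATA box letters TATAAA were in 12.8% of member windows and 12% of all. The octamer ATGCAAAT, the letters bound by POU factors such as POU5F1, was in 1 member window (0.917%) and in 1.82% of all. That window belongs to LINC00641, at chr14:21206851-21207150 on the minus strand, where the match is in capitals. A match is a description of the letters and not of binding.
LINC00641: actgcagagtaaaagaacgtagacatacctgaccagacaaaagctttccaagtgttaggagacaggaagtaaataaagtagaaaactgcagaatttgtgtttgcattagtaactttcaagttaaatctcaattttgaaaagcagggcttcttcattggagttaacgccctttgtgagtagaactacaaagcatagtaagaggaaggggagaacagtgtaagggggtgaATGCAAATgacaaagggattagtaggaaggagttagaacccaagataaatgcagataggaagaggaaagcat

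Near-identical sequence limits part of the list. Transcripts of 33 members were at least 95% alike another gene's transcript over 300 bases or more, and 43 members had values that are not whole in at least 1 library, with 24 in both sets. Levels of these members depend on how the reads were divided. LINC00623, LINC00869 and LINC01145 on chromosome 1 share such sequence, 99.6% over 523 bases between LINC00869 and LINC00623 and 99.2% over 529 bases between LINC00623 and LINC01145. All 3 rose in N2B27 against PXGL, by 3.92-fold, 3.01-fold and 2.42-fold (adjusted p = 3.49e-07, 3.61e-05 and 0.000575). LINC00623 was at 3.07, 4.16 and 2.11 CPM in PXGL, 11.1, 12.6 and 13.1 CPM in N2B27 and 10.9, 11.6 and 9.22 CPM with EPZ-6438, without overlap between PXGL and the others. Since the 3 share sequence, they are not 3 separate observations. LINC01106 and LINC01123 on chromosome 2 share 99.5% over 2256 bases, and 289 bases of their promoter windows are 100% identical. LINC01123 was at 1.88, 1.64 and 0 CPM in the EPZ-6438 libraries, and did not pass (adjusted p = 0.37). How reads divided between the pair was not tested.

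Some members start beside each other in opposite directions. The windows of LINC00526 and LINC00667 on chromosome 18 overlap by 170 bases, with starts 772 bases apart in GENCODE 29. LINC00667 was at 7.56 ± 0.390 and 10.7 ± 1.52 CPM in PXGL and N2B27, while LINC00526 was at 0.843 ± 0.508 and 0.531 ± 0.184 CPM and did not pass (adjusted p = 0.340). LINC02211 and LINC02228 on chromosome 5 overlap by 204 bases. LINC02228 fell from 3.12 ± 0.568 to 1.74 ± 0.427 CPM (adjusted p = 0.0202), and not without PXGL replicate 2, PXGL replicate 3 or N2B27 replicate 1 (adjusted p = 0.0709, 0.0560 and 0.0896). LINC02211 was at 1.52 ± 0.213 and 1.47 ± 0.442 CPM (adjusted p = 0.905). Starts of LINC02987 and LINC00662 on chromosome 19 are 477 bases apart. LINC02987 rose from 3.49 ± 0.615 to 6.87 ± 0.965 CPM (1.97-fold, adjusted p = 0.000308), while LINC00662 was at 11.9 ± 0.241 and 11.2 ± 0.307 CPM (adjusted p = 0.631). In each of these 3 pairs 1 gene passed and the other did not, and the difference between the 2 genes was not tested. Values were not whole in all 9 libraries for LINC00526, LINC00667 and LINC02211 and in 3 for LINC02987. The transcript of LINC02211 is 98.2% alike NORAD over 1036 bases. Levels of these genes depend on how reads were divided, and its part in the contrasts was not tested.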

How the data were processed

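RNA came from Trizol extracts and libraries from a kit that depletes ribosomal RNA, per the labels' protocols, while the molecule label names polyA RNA. Strandedness is not stated there. The values are expected counts as the authors deposited them, in 1 table whose entries can hold fractions. The submitters' processing notes list STAR 2.7.6a, Trim Galore, DESeq2 and hg38, with no counting program.

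Values were rounded. Plain CPM chose the members, and TMM-scaled CPM is printed. The 15179 genes passing filterByExpr, of 22640 with a count, were fitted over all 9 libraries with a term per group (edgeR 4.0.16, robust quasi-likelihood, R 4.3.3; Benjamini-Hochberg adjusted p under 0.05 over all genes tested). LINC00482 was below the filter. The fit was tested on simulated data. Whether replicates were separate cultures is not stated, so a p-value reflects only how these libraries vary, perhaps technically. Series text speaks of triplicate samples and of duplicate RNA-seq, and the labels give 3 libraries a group. No replicates were within sampling noise.

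Positions and transcripts came from GENCODE 29 and promoters from RefSeq (GRCh38.p14), compared with BLAST 2.17.0. Named members were, per comparison, the 10 largest rises and falls among calls with separate ranges and at least 1 CPM in the higher group, the 5 highest per kilobase in each group, the 3 highest without a call, those at the threshold and a list of known genes. Other members called with EPZ-6438 against N2B27, members close to or alike another, and some abundant ones were added after values were seen. The members and lists were chosen with earlier results of these data known. Alternatives were DESeq2 1.42.0 size factors and Wald test, other low-count filters, 2 groups fitted alone, a replicate block, a test against 1.5-fold, each library left out and other level thresholds.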

Additional observations from a re-analysis of the deposited data

How the results depend on the processing

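The count of members higher with EPZ-6438 against N2B27 was 20. It was 6 when tested against 1.5-fold, 12 for members at 1 CPM or more in both groups, and 13 to 29 with 1 library left out. The count lower was 2. It was 5 with the 2 groups fitted alone, 1 against 1.5-fold, 1 for members at 2 CPM or more, 1 for members at 1 CPM or more in both groups, and 1 to 5 with 1 library left out. For N2B27 against PXGL, 33 higher became 14 and 42 lower became 17 against 1.5-fold, and 23 were lower among members at 1 CPM or more in both groups; leaving out 1 library gave 25 to 33 and 29 to 47. For EPZ-6438 against PXGL, 42 higher became 23 and 26 lower became 8 against 1.5-fold, 26 were higher and 17 lower at 1 CPM or more in both groups, and leaving out 1 library gave 34 to 43 and 21 to 30. A fit against 1.5-fold calls fewer genes by construction.

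The number of LINC members was 169, with 246 at 0.5 CPM, 116 at 2 CPM and 167 to 174 with 1 library left out. With the replicate block the counts were 20 and 3, 30 and 38, and 40 and 24. Deviations of same-numbered libraries correlated at -0.0171 to 0.0432 over 9 pairs, so the numbers were not taken to pair the libraries. The block ended 13 calls.

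Over 185 named values recomputed 2948 times, 2565 kept their side of the threshold and their direction, 377 lost the call, 4 gained one and 2 changed sign. Of the losses 102 were against 1.5-fold and 228 without 1 library. The sign changed for LINC02864, N2B27 against PXGL, without PXGL replicate 2 or without N2B27 replicate 3. Its log2 fold change ranged from -0.0231 to 0.04 with 1 library left out, on either side of 0, and the cause was not tested. Whether start sites lie in repeats was not run, since it needs a repeat-masked genome.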
